A study of Mus musculus with 4 samples.

Results

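Genes of the mitotic spindle, the kinetochore and cytokinesis were examined in stem cells and enterocytes of the mouse small intestine. The set was a list of 54 named genes, of which 50 had a probe set mapped to exactly 1 symbol and were measured, among 12393 genes tested. Cdca8, Espl1, Spc24 and Kif20b had no such probe set and were not analysed here. Where a gene had several probe sets, the brightest on average was taken.

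RNA was hybridised to 4 Affymetrix mouse arrays, 2 per group, from proximal intestinal epithelium of C57BL/6 mice aged 4 to 6 weeks. The stem group consisted of flow-sorted Lgr5(hi) cells of wild-type animals. The enterocyte group consisted of villus cells detached with EDTA, and these animals carried a conditional knockout of Atoh1, the transcription factor gene that secretory cells require. Tamoxifen at 1 mg per day for 5 days and a wait of 5 days is given for each of the 4 samples, also those called wild type. The driver of the knockout, the marker allele behind the sort and the animals behind each array are not stated in the labels. The samples are labelled biological replicates. Cell type, genotype and isolation method differ together between the groups and cannot be told apart.

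In dividing cells the chromosomes are compacted by condensin, captured by kinetochores built on centromeric chromatin and moved by microtubules and kinesin motors of the spindle. A checkpoint holds cells until every chromosome is attached, and the anaphase promoting complex then releases sister chromatids and ends mitosis. In the intestine, division is limited to the crypts, where Lgr5 stem cells cycle, and villus enterocytes no longer divide. Transcripts of many of these genes peak in G2 and M phase, under the control of the DREAM and B-Myb complexes and of Foxm1, through a promoter element called the cell cycle genes homology region (CHR) that often lies near a CCAAT box.

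Promoter stretches were examined because the members moved together, as described further on. RefSeq promoter entries of assembly GRCm38.p6, each of 250 bases before and 50 bases after a transcription start, were matched by symbol for 45 of the 54 genes. The CHR was searched as TTTGAA or TTCGAA and the CCAAT box as CCAAT, both strands. At least 1 CHR was found in 31 of the 45 genes (68.9%), against 21.7% of the 27025 genes with a promoter entry. The share was 17.3% of the 9887 tested genes with an entry. A CCAAT box was found in 31 of the 45 genes (68.9%), against 41.1% of all 27025. Both motifs were found in 26 genes (57.8%), against 8.61%. Matches of the 2 motifs overlapped each other in 1 of the 45 genes. In 25 of the 42 measured genes with an entry, a CHR began within 50 bases of the start. Among the 45 measured genes of the DNA replication machinery, 38 had an entry and 8 of these (21.1%) held a CHR. Such matches describe letters in a window and were not tested as binding sites.

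The 150 bases before the start are given for the 5 genes with the largest decreases whose stretch holds a CHR, and for Bub3, which was added after its values were seen because it holds a CHR and did not pass the test. Capitals mark the CHR (runs of 6 letters, in either orientation) and the CCAAT box (runs of 5 letters, read as ATTGG on the opposite strand). Sequences run 5′ to 3′ in the direction of the gene and end at the base before the start. A CHR after the start lies outside these stretches, as in Kif23 and Cenpf (beginning at 3) and Ndc80 (at 30). Kif23 and Ndc80 are therefore not shown, although their falls were larger than that of Kif2c.
Mki67 (chr7:135716380-135716529, minus strand): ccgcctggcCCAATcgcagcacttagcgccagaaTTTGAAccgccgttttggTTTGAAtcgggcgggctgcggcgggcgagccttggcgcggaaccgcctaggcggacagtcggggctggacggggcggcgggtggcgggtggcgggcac
Kif2c (chr4:117178773-117178922, minus strand): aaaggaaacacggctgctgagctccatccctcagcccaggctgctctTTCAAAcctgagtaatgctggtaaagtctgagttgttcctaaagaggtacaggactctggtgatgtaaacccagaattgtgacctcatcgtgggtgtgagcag
Kif11 (chr19:37376232-37376381, plus strand): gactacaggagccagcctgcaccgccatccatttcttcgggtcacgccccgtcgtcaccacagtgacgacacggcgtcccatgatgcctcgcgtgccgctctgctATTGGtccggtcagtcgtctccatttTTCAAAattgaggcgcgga
Ncapd2 (chr6:125191587-125191736, minus strand): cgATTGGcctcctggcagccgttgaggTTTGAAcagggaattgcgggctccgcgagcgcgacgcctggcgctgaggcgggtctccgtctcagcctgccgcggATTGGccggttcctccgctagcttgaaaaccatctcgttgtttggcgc
Ncapg2 (chr12:116405286-116405435, plus strand): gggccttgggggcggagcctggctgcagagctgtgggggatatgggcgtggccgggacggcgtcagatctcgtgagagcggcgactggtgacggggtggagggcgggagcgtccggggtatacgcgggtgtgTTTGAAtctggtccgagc
Bub3 (chr7:131560220-131560369, plus strand): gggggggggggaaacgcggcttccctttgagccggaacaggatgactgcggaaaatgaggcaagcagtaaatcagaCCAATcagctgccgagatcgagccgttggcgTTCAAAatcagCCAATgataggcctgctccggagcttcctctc

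Mki67, which encodes the Ki-67 protein that coats mitotic chromosomes, held 2 CHR matches in its stretch, beginning at -116 and -98 from the start. In Kif11 and Ncapg2 the CHR began at -19 and -18. The median difference between enterocyte and stem arrays (log2) was -2.03 in the 28 measured genes with a CHR and -2.02 in the 14 with an entry but without one. The medians were thus nearly equal with and without the element.

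Almost all measured mitosis genes were lower in enterocytes. Of 50 genes, 47 fell, 1 rose and 2 did not pass the threshold of 0.05 on the adjusted p (limma, Benjamini-Hochberg over all 12393 genes). Over all genes tested 22.4% fell and 18.2% rose, 40.6% in all. The median log2 difference of the 50 genes was -1.99 (-1.97 with genes below background set at their bounds), against -0.003 over all genes tested. Of the 47 falls, 46 were at least 2-fold, 25 at least 4-fold and 5 at least 8-fold. Over all 12393 genes tested 1689 fell at least 2-fold and 454 at least 4-fold. Both enterocyte arrays lay below both stem arrays in 47 of the 50 genes, against 34.8% of all genes tested. In bulk RNA, fewer dividing cells and less mitotic RNA per cell cannot be told apart. Without stem replicate 1 or stem replicate 2, limma called 0 of all 12393 genes (4675 and 4817 had an unadjusted p under 0.05), so that these settings say nothing about the mitosis genes in particular; 35 and 34 of the 50 were lower with such a p. Without enterocyte replicate 1, 18 of the 50 and 1058 of the 12393 were lower past the threshold, and without enterocyte replicate 2, 20 and 853. With values raised to the background level 34 of the 50 and 1881 of the 12393 genes fell. Of the 47 falls, Bub1, Plk4, Cenpf, Spc25, Kif11, Kif4, Hmmr, Nusap1, Anln, Smc2, Ncapg2, Top2a and Pttg1 no longer passed. Their adjusted p was at most 0.0924 (limma). Of the 50 differences 49 were negative without either stem array or without enterocyte replicate 1, and 47 without enterocyte replicate 2. P-values measure only the spread between these arrays, which may in part be technical.

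**Figure D1:**
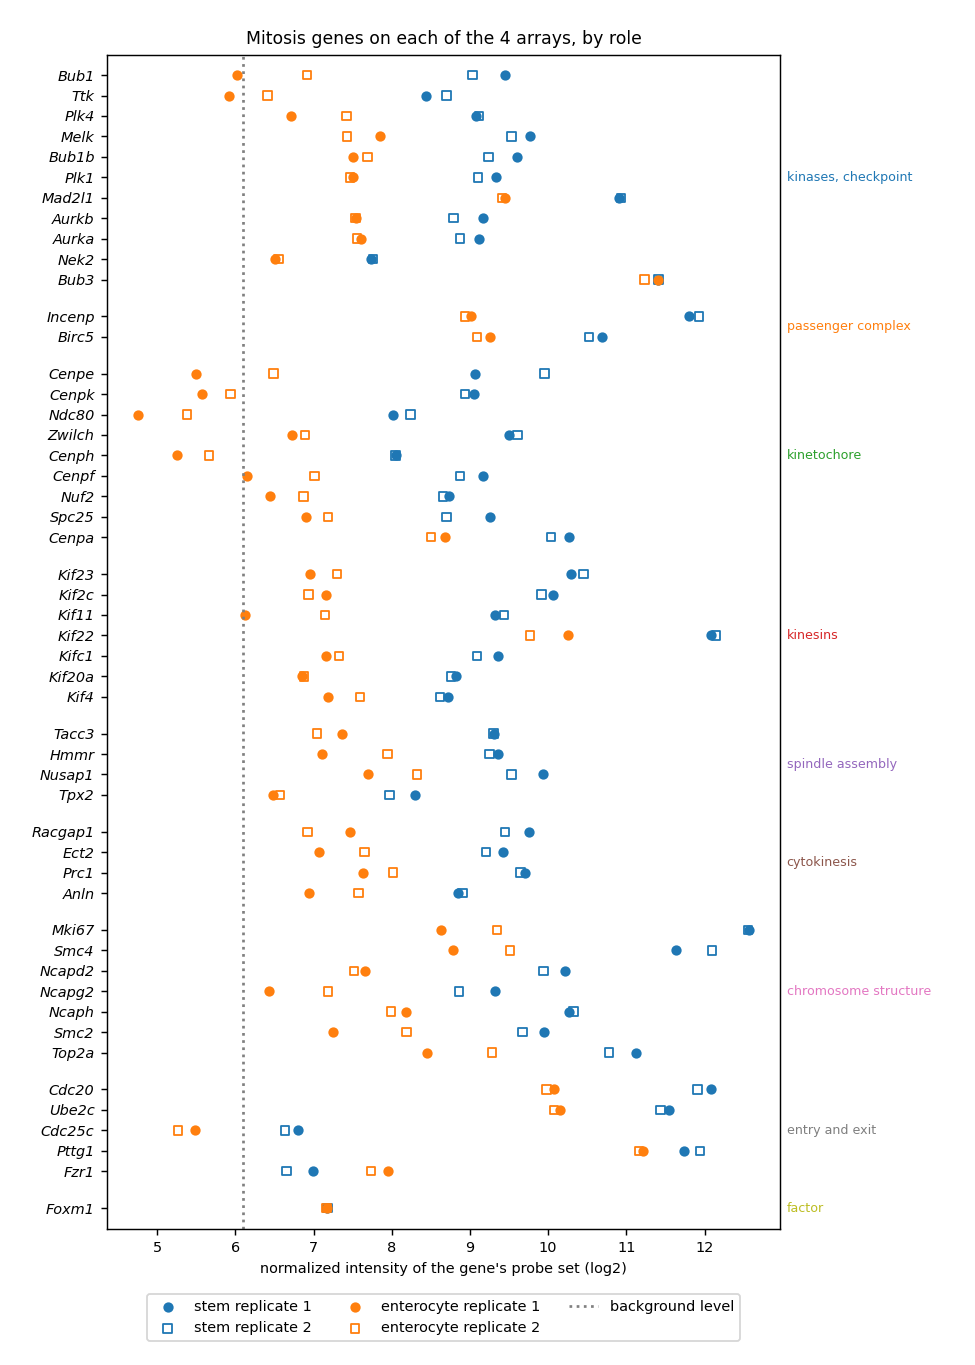
Normalized intensity (log2, horizontal axis) of each of the 50 measured mitosis genes on the 4 arrays, grouped by role; blue marks are stem arrays, orange marks enterocyte arrays, circles replicate 1 and squares replicate 2, and the dotted line is the background level of 6.09. The orange marks lie left of the blue ones in 47 genes, right of them in Fzr1, and overlap them in Bub3 and Foxm1.

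Several measures of the arrays moved with the groups. The array medians lay between 102.4 and 110.6 intensity units. Actb, a cytoskeletal gene with control probe sets at both ends of its transcript, had a 3′ minus 5′ difference of 2.06 and 2.10 (log2) on the stem arrays and 0.56 and 0.50 on the enterocyte arrays, and that of Gapdh was 1.70 and 1.92 against 0.15 and 0.17. Bacterial bioB, a transcript spiked into every hybridisation, was 2.22 lower (log2) on the enterocyte arrays, in the same direction as the mitosis genes. The spikes bioC and bioD differed by -0.67 and -0.58, and the brightest spike, cre, by -0.05. The part of these measures in the mitosis gene differences was not tested. The stem label was borne by Lgr5 at 11.33 and 10.96 (log2) against 6.92 and 6.09 in enterocytes, and all 9 measured stem cell markers fell. Stem arrays also carried the Paneth cell gene Lyz1 at 14.75 and 15.12, although Defa3, another of 5 measured Paneth markers, was below background. All 6 measured goblet markers lay above background on the stem arrays. Of 9 enteroendocrine markers 7 were lower in enterocytes and 0 higher, among them Chgb (11.97 and 12.26 against 5.79 and 6.83). All 4 measured tuft markers were higher in enterocytes, with Il25 below background in both groups. All 15 measured enterocyte markers rose. Of 15 lymphocyte markers 11 rose in enterocytes and 0 fell, with a summed intensity of 1036 and 1318 in stem and 9293 and 12400 in enterocyte arrays; the part of these cells in the remaining mitotic signal of the enterocyte arrays was not tested. Under centring on the median level of reference genes, the median of all genes moved to -0.62 (8851 lower, 1391 higher). With their mean deviation it moved to -0.20 (3845 lower, 1994 higher), against 2779 lower and 2257 higher as deposited. The reference genes differed between the groups themselves: of 10 measured, 4 were higher in enterocytes and 2 lower as deposited (limma).

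All 9 measured kinetochore genes fell, at a median of -2.59 (log2), or -2.04 with the 3 genes below background in both enterocyte arrays set at their bounds. The outer kinetochore grips microtubules through the Ndc80 complex, of which Ndc80, Nuf2 and Spc25 were measured. Ndc80 was 8.02 and 8.24 (log2 intensity) in the stem and 4.75 and 5.38 in the enterocyte arrays. Both enterocyte values lay below the background level of 6.09, set from genes of other organs, so that it was at least 4.10-fold lower (-3.06 ± 0.27 SE, adjusted p = 0.00693, limma). Its partners Nuf2 and Spc25 stayed above background in both enterocyte arrays and differed by -2.04 and -1.93 (log2). Cenpk and Cenph belong to the inner network that joins the kinetochore to centromeric chromatin. Cenpk was 9.05 and 8.93 in stem and 5.57 and 5.94 in enterocyte arrays, at least 7.47-fold lower (-3.24 ± 0.16 SE). Cenph was 8.05 on both stem arrays and 5.26 and 5.66 on the enterocyte arrays, at least 3.88-fold lower (-2.59 ± 0.17 SE). Both genes were thus near or below background in enterocytes and clear of it in stem cells.

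Cenpe, a kinesin-like motor of the kinetochore, was 9.07 and 9.95 in stem and 5.50 and 6.48 in enterocyte arrays (log2). Its fall was among the largest of the set (-3.52 ± 0.52 SE, adjusted p = 0.0185, limma) but also had the largest standard error, since the replicates of each group lay 0.88 and 0.99 apart. Zwilch, a subunit of the complex that recruits dynein to kinetochores, was tighter, at 9.50 and 9.61 against 6.72 and 6.89, a 6.72-fold fall (-2.75 ± 0.09 SE). Cenpf, a large coiled-coil protein of the outer kinetochore, was 9.17 and 8.87 against 6.15 and 7.01 (-2.44 ± 0.36 SE). Cenpa, the histone H3 variant that marks the centromere, was 10.27 and 10.04 against 8.68 and 8.50, the smallest fall of the role, at 2.96-fold (-1.56 ± 0.13 SE).

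All 7 measured mitotic kinesins fell, at a median of -2.11 (log2). Kif23, the motor of centralspindlin at the spindle midzone, was 10.29 and 10.45 in stem and 6.95 and 7.30 in enterocyte arrays, a 9.46-fold fall (-3.24 ± 0.16 SE, adjusted p = 0.00341, limma). Kif2c, which depolymerises microtubules at the centromere, was 10.06 and 9.91 against 7.15 and 6.94, a 7.69-fold fall (-2.94 ± 0.12 SE). Kif11, the motor that pushes spindle poles apart, was 9.31 and 9.43 against 6.13 and 7.14, a 6.67-fold fall (-2.74 ± 0.41 SE). In all 3 genes the groups stood apart, although the enterocyte arrays differed from each other by 1.02 in Kif11. Kif22, a chromosome-binding motor, differed by -2.11, the minus-end motor Kifc1 by -1.98 and Kif20a, a motor of the cleavage furrow, by -1.93. Kif4, a chromosome-binding kinesin of the midzone, had the smallest difference of the role, 8.72 and 8.62 against 7.19 and 7.59 (-1.28 ± 0.17 SE).

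Of 11 kinases and checkpoint genes, 10 fell and 1 did not pass. Bub1, a checkpoint kinase, was 9.44 and 9.03 in stem and 6.02 and 6.91 in enterocyte arrays (log2), a 6.82-fold fall (-2.77 ± 0.39 SE, adjusted p = 0.0165, limma). Ttk, the kinase that starts the checkpoint signal, was 8.44 and 8.70 against 5.91 and 6.41, a 5.30-fold fall (-2.41 ± 0.23 SE). Plk4, the kinase of centriole duplication, and Melk, a kinase of cycling cells, differed by -2.03 and -2.01. The checkpoint kinase-like gene Bub1b differed by -1.82. Falls were smaller in the kinases best known for driving mitosis: Plk1 was 9.33 and 9.10 against 7.51 and 7.47 (3.31-fold), Aurka, of the spindle poles, 9.12 and 8.87 against 7.61 and 7.55 (2.67-fold), and Aurkb, of the chromosomal passenger complex, 9.17 and 8.79 against 7.55 and 7.53 (2.71-fold). Mad2l1, which binds and blocks Cdc20, fell 2.81-fold (10.90 and 10.93 against 9.45 and 9.41), and the centrosomal kinase Nek2 2.33-fold (-1.22 ± 0.05 SE).

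Bub3 was the checkpoint gene that did not pass. It binds Bub1 and Bub1b and carries them to the kinetochore. Its values were 11.41 on both stem arrays and 11.41 and 11.23 on the enterocyte arrays (log2), a difference of -0.09 ± 0.09 SE (adjusted p = 0.48, limma). The groups overlapped, and 3 of the 4 arrays held the identical deposited value. Its 3 further probe sets differed by 0.26, 0.04 and -0.26, none past the threshold. With centring on the median level of the reference genes, which moved most genes downward, Bub3 was called lower (-0.71, adjusted p = 0.003, limma).

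The partners of Aurkb in the passenger complex differed in the size of their fall. Incenp, the scaffold of the complex, was 11.80 and 11.93 in stem and 9.02 and 8.94 in enterocyte arrays (log2), a 7.42-fold fall (-2.89 ± 0.08 SE, adjusted p = 0.00261, limma). Birc5, which encodes survivin and brings the complex to centromeres, was 10.69 and 10.52 against 9.26 and 9.09, a 2.70-fold fall (-1.43 ± 0.11 SE). Both groups of arrays stood apart in both genes.

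All 7 genes of chromosome structure fell, each by at least 4-fold, at a median of -2.28 (log2). Mki67 was 12.57 and 12.55 in stem and 8.63 and 9.34 in enterocyte arrays. That 11.9-fold fall was the largest of the 50 genes (-3.58 ± 0.29 SE, adjusted p = 0.00603, limma). Smc4, an ATPase shared by both condensin complexes, was 11.64 and 12.10 against 8.78 and 9.51, a 6.62-fold fall (-2.73 ± 0.34 SE), and its partner Smc2 was 9.95 and 9.67 against 7.25 and 8.18, a 4.27-fold fall (-2.10 ± 0.39 SE). Of the condensin I subunits, Ncapd2 fell 5.62-fold and Ncaph 4.62-fold, and the condensin II subunit Ncapg2 fell 4.86-fold. Top2a, the topoisomerase that untangles sister chromatids, was 11.12 and 10.78 against 8.45 and 9.28, a 4.25-fold fall (-2.09 ± 0.36 SE). With the replicate number as a block, Smc2 and Top2a no longer passed (adjusted p = 0.0553 and 0.0524, limma).

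Spindle assembly and cytokinesis genes fell without exception among those measured, 4 of 4 in each role, at medians of -1.75 and -1.90 (log2). Tacc3, which stabilises spindle microtubules, was 9.30 on both stem arrays and 7.36 and 7.04 on the enterocyte arrays (-2.10 ± 0.13 SE). Hmmr, a spindle protein, differed by -1.78, Nusap1, which bundles spindle microtubules, by -1.72, and Tpx2, the activator of Aurka on the spindle, by -1.61. Nusap1 no longer passed with the replicate block (adjusted p = 0.059, limma), nor Hmmr with the mean over probe sets (adjusted p = 0.0553). Racgap1, the partner of Kif23 in centralspindlin, was 9.75 and 9.45 against 7.47 and 6.92, a 5.30-fold fall (-2.41 ± 0.25 SE). Ect2, which activates the GTPase that drives furrowing, differed by -1.96, the midzone bundling protein Prc1 by -1.85 and Anln, the anillin scaffold of the contractile ring, by -1.62.

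Of the 5 measured regulators of mitotic entry and exit 4 fell and 1 rose, at a median of -1.35 (log2), or -0.65 with Cdc25c at its bound. Cdc20, the activator of the anaphase promoting complex in mitosis, was 12.08 and 11.91 in stem and 10.07 and 9.98 in enterocyte arrays (log2). This was a 3.92-fold fall (-1.97 ± 0.09 SE, adjusted p = 0.0033, limma). The fall was smaller on its dimmer probe sets, -0.99 and -0.85, both past the threshold. Ube2c, the ubiquitin-conjugating enzyme of the same complex, was 11.55 and 11.44 against 10.15 and 10.07, a 2.61-fold fall (-1.39 ± 0.07 SE). Cdc25c, the phosphatase that activates Cdk1, was 6.80 and 6.63 against 5.48 and 5.27, the latter below background, and was at least 1.54-fold lower (-1.35 ± 0.12 SE).

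Fzr1 was the 1 gene of the set that rose. It encodes Cdh1, the activator that takes over from Cdc20 at the end of mitosis and keeps the complex active in G1 and in cells that have left the cycle. Its values were 6.99 and 6.66 in stem and 7.95 and 7.74 in enterocyte arrays (log2), a 2.03-fold rise (1.02 ± 0.17 SE, adjusted p = 0.0225, limma). The enterocyte arrays stood above both stem arrays. This rise was not past the threshold with values raised to the background level (adjusted p = 0.0685).

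Pttg1, which encodes securin, the inhibitor of separase, had the smallest fall of the set. It was 11.73 and 11.94 in stem and 11.21 and 11.16 in enterocyte arrays (log2), a 1.57-fold fall (-0.65 ± 0.10 SE, adjusted p = 0.0191, limma). Its further probe sets differed by -0.15 and -0.79, neither past the threshold, and the call was lost with the mean over probe sets (adjusted p = 0.0505).

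**Figure D2:**
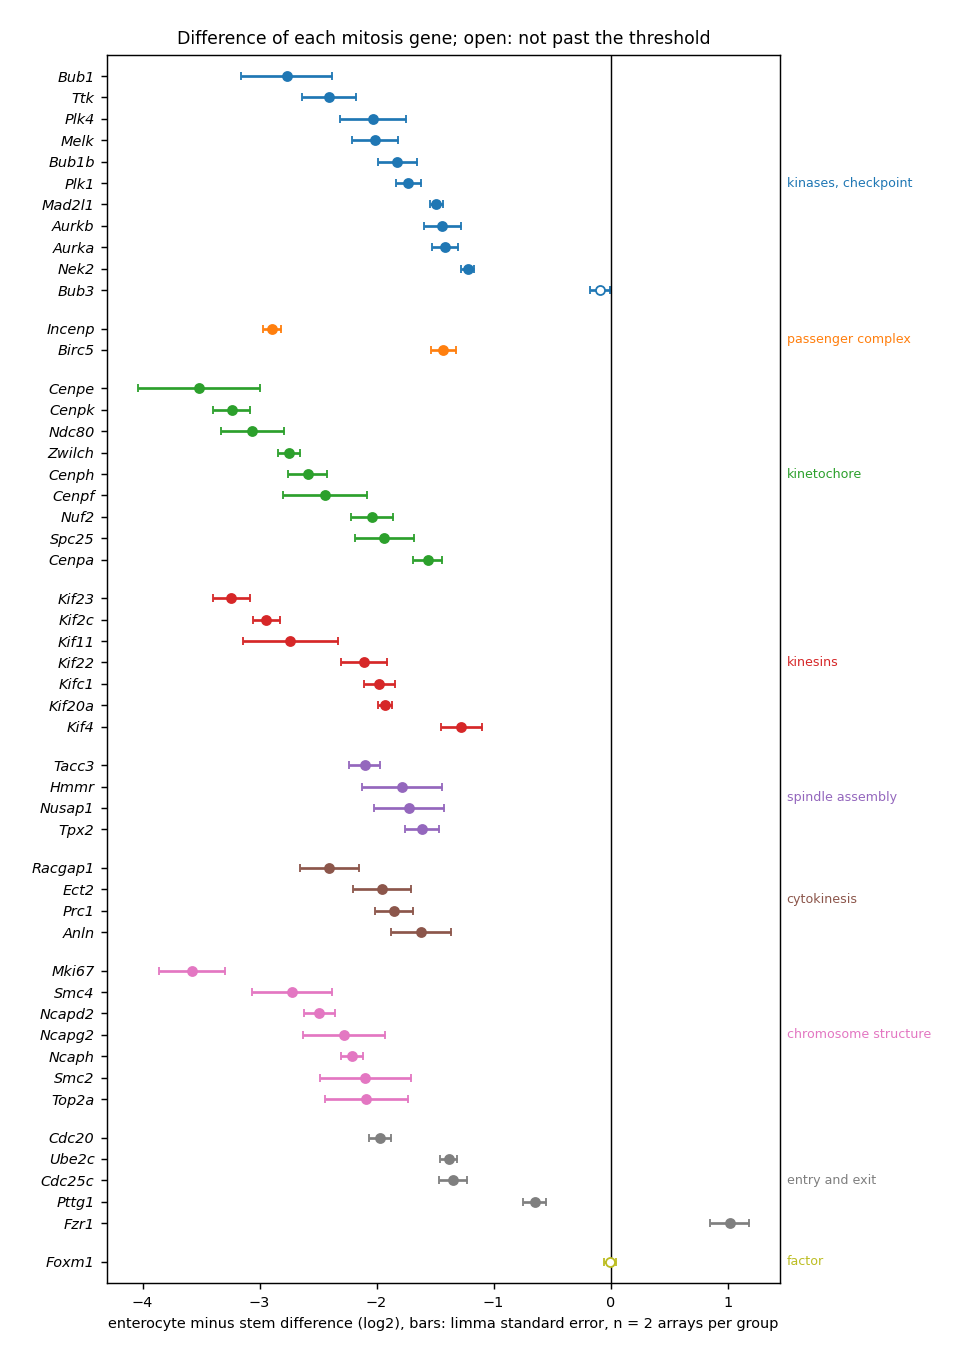
Enterocyte minus stem difference (log2, horizontal axis) of each mitosis gene by role, with limma's standard error as bars (n = 2 arrays per group) and open marks for genes not past the threshold. Differences run from -3.58 in Mki67 to 1.02 in Fzr1, with Bub3 and Foxm1 beside 0.

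For Foxm1, the transcription factor that activates many of the genes above, the choice of probe set decided the result. The probe set with the highest mean read 7.17 on both stem arrays and 7.17 and 7.16 on the enterocyte arrays (log2), a difference of -0.01 ± 0.05 SE (adjusted p = 0.95, limma), with the identical deposited value on 3 arrays. Another of its 4 probe sets read 7.18 on both stem arrays and 6.13 and 6.12 on the enterocyte arrays, a difference of -1.05 ± 0.05 SE (adjusted p = 0.004, limma over all probe sets). The other two differed by -0.29 (adjusted p = 0.046) and -0.08 (adjusted p = 0.38), the latter at the lowest signal of the 4. With the mean over its probe sets Foxm1 was called lower (-0.36, adjusted p = 0.0167), as it was with centring on the median level of the reference genes (-0.62, adjusted p = 0.00443).

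Other genes had several probe sets as well. Of the 50 genes, 23 had more than 1, with 40 further probe sets in all. Fitted over all probe sets, 20 of the 40 were lower past the threshold, 0 were higher and 20 were not past it. Of the 27 further probe sets above background in stem arrays 17 were lower, and of the 13 below it 3 were lower. Smc4 was read alike by its 3 probe sets (-2.73, -2.62 and -3.11), and Tpx2 by both (-1.61 and -1.69). Incenp had -2.07 and -0.20 on its dimmer probe sets, and Kif2c -1.24, -0.36 and 0.08. The dim probe set of Top2a held the same value, 4.02, on all 4 arrays. In 24 genes the identifier of the probe set used ends in _s_at, _x_at or _a_at. These endings mark probes shared between transcripts, of the same gene (_a_at) or possibly of others. Without such probe sets 38 genes could be tested, of which 30 fell and 1 rose. There Tacc3 stood at 0.21 (adjusted p = 0.345, limma), on a probe set below background on all 4 arrays.

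**Figure D3:**
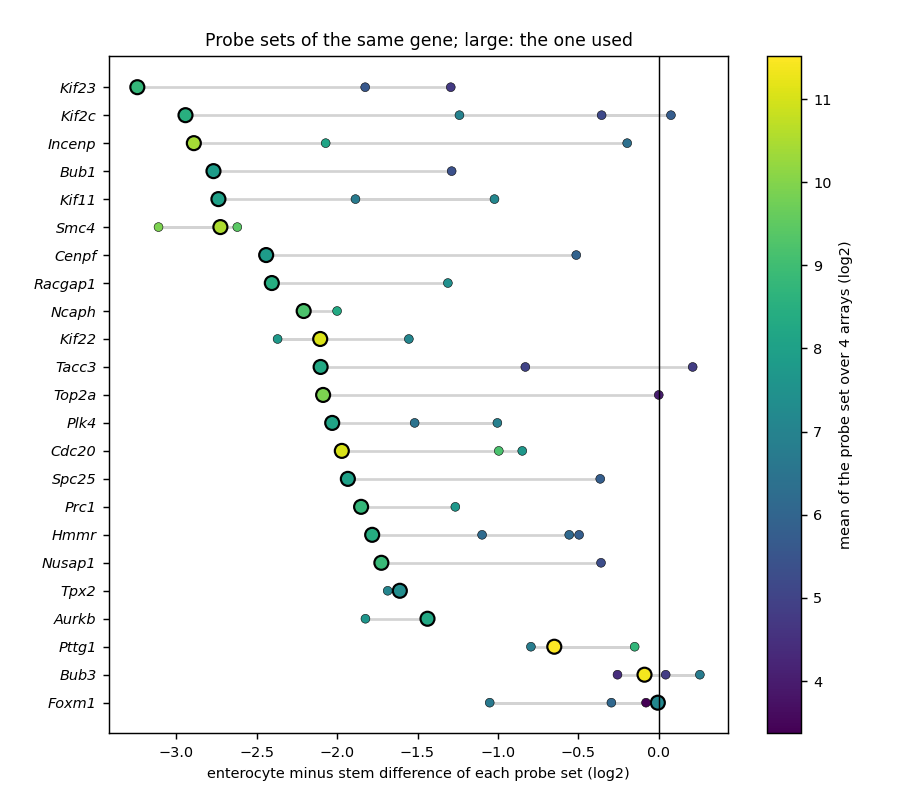
Enterocyte minus stem difference (log2, horizontal axis) of every probe set for the 23 mitosis genes with several; large marks are the probe sets used, and colour gives the mean log2 intensity over the 4 arrays. Most dimmer probe sets lie closer to 0 than the one used. Some lie farther from 0, among them 1 each in Foxm1 (-1.05), Aurkb (-1.82), Kif22 (-2.37) and Smc4 (-3.11).

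Some of the mitosis genes differed between the enterocyte replicates. In 15 of the 50 genes (30.0%) enterocyte replicate 2 was higher than replicate 1 by more than 0.5 (log2), and in 1, Racgap1, lower by more than 0.5. Over all genes tested the share that was higher by more than 0.5 was 5.73%. Between the stem replicates 1 of the 50 genes, Cenpe, was higher in replicate 2 by more than 0.5, and Spc25 was lower. The 15 genes included 5 of the 7 of chromosome structure, among them Smc2 (0.94), Top2a (0.83), Ncapg2 (0.75), Smc4 (0.73) and Mki67 (0.71). The largest were Kif11 (1.02) and Cenpe (0.99). None of the 5 measured genes of entry and exit was among them: Cdc20, Ube2c and Pttg1 differed by -0.09, -0.08 and -0.05. Plk1, Aurka and Aurkb differed by -0.04, -0.06 and -0.01.

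Other lists were compared between the same 2 arrays. Of 9 measured cohesin genes 6 were higher in enterocyte replicate 2 by more than 0.5. Among 28 centrosome and centriole genes 10 (35.7%) were higher by more than 0.5 and 2 lower. In the lists of other spindle and cytokinesis genes and other kinetochore and centromere genes, 4 of 36 and 3 of 26 were higher. Of 45 DNA replication genes 2 were higher and 4 lower. Stem cell markers had a median of -0.30 between the enterocyte arrays, with 0 of 9 higher by more than 0.5 and 3 lower. Lgr5 was 6.92 in replicate 1 and 6.09 in replicate 2. Of 5 measured Paneth cell markers 3 were higher in replicate 2 by more than 0.5: Lyz1 at 8.12 and 11.11, Mmp7 at 5.99 and 9.24 and Itln1 at 8.14 and 11.66. Pla2g2a, at 5.31 and 5.22, and Defa3, at 3.89 and 4.20, lay below background in both enterocyte arrays. Of 15 lymphocyte markers 3 were higher by more than 0.5. Their part in the mitosis gene values was not tested. With 1 array on each side, no test of these replicate differences is possible.

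**Figure D4:**
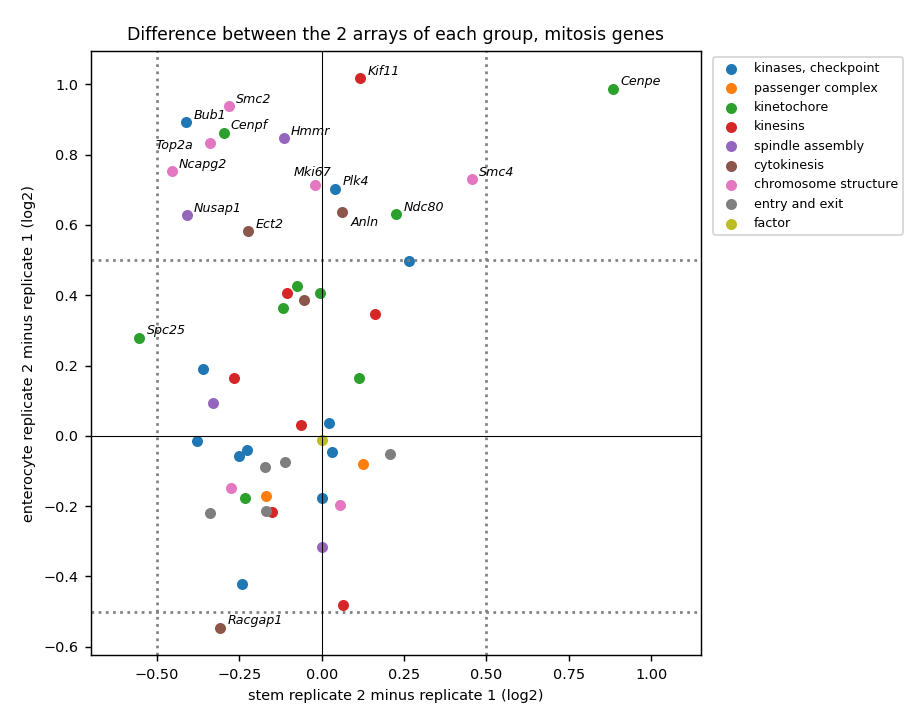
Replicate 2 minus replicate 1 (log2) for each mitosis gene in the stem arrays (horizontal axis) and the enterocyte arrays (vertical axis), coloured by role, with dotted lines at 0.5 and -0.5 and names for genes beyond them. The upper part holds 15 genes, up to Kif11 at 1.02, and the lower part 1, Racgap1 at -0.55.

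Further genes of the pathway, from lists of its known parts, were read from the same fit. Of 36 other spindle, cytokinesis and mitotic entry genes 33 fell, 0 rose and 3 did not pass, at a median of -1.80 (log2), or -1.70 at the bounds. Psrc1, a microtubule-binding protein, was at least 9.07-fold lower (9.29 and 9.25 against 5.92 and 5.92), the condensin subunit Ncapg fell 6.42-fold and Cit, the citron kinase of cytokinesis, was at least 5.31-fold lower. Cyclin A2, encoded by Ccna2, fell 4.44-fold (11.36 and 11.15 against 9.14 and 9.06), the mitotic kinase Cdk1 2.60-fold (10.22 and 10.14 against 8.86 and 8.73) and the cyclin gene Ccnb2 2.16-fold (10.31 and 9.99 against 9.11 and 8.96). Ccnb1 was not analysed here.

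Of 26 other kinetochore and centromere genes 14 fell, 2 rose and 10 did not pass, at a median of -0.83. With the arrays centred on the median level of the reference genes 23 were lower and 1 higher, and with their mean deviation 19 and 2. The largest falls were in Spag5 (6.21-fold), a spindle and kinetochore protein, Cenpt (3.94-fold), of the inner kinetochore, and Trip13 (3.40-fold), an ATPase that disassembles the checkpoint complex. The genes that rose were Mad2l1bp (2.22-fold), which encodes p31comet, an adaptor that works with Trip13 to silence the checkpoint, and Ndel1 (1.63-fold), a dynein regulator that also acts outside mitosis. Centrosome and centriole genes fell in 20 of 28 cases with 0 rises (median -1.47, or -1.20 at the bounds), led by the augmin subunits Haus3 (-2.68) and Haus6 (-2.64) and the centriole gene Stil (-2.46). Of 9 cohesin genes 5 fell and 0 rose (median -1.22), among them Smc1a (-1.66), the loader Nipbl (-1.31) and Stag1 (-1.27). Under the same centrings 9 and 6 of the 9 were lower.

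Subunits of the anaphase promoting complex, which Cdc20 and Fzr1 activate, numbered 13 among those measured: 9 fell, 4 did not pass and 0 rose (median -0.89). Anapc5 was 13.04 and 13.05 in stem and 11.11 and 10.96 in enterocyte arrays (log2), a 4.03-fold fall (-2.01 ± 0.08 SE), and Cdc16 and Cdc23 fell 3.54-fold and 3.13-fold. The rise of Fzr1 thus stood beside falls of most measured subunits of the complex.

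A list of kinesins named for interphase transport served as a comparison. It also held non-motor partners, such as the light chain genes Klc1 and Klc4. Of 23 measured, 2 fell, 4 rose and 17 did not pass (22.4% and 18.2% of all genes fell and rose), at a median of -0.04, against -2.11 for the mitotic kinesins. Kif3a, of ciliary transport, was at least 1.49-fold lower and Kif1c fell 1.38-fold, while Kifc3, a motor of cell junctions, rose 3.34-fold (6.24 and 6.08 against 7.95 and 7.86), and the light chain Klc4 2.96-fold and Kif3b 2.11-fold. With the arrays centred on the median level of the reference genes 18 of the 23 were lower and 3 higher, at a median of -0.66, and with their mean deviation 7 were lower and 4 higher. DNA replication genes fell in 39 of 45 cases with 0 rises, at a median of -1.62, led by the polymerase genes Pold1 (9.18-fold), Pole (6.95-fold) and Pola1 (6.82-fold). Whether the lists differ from one another was not tested.

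**Figure D5:**
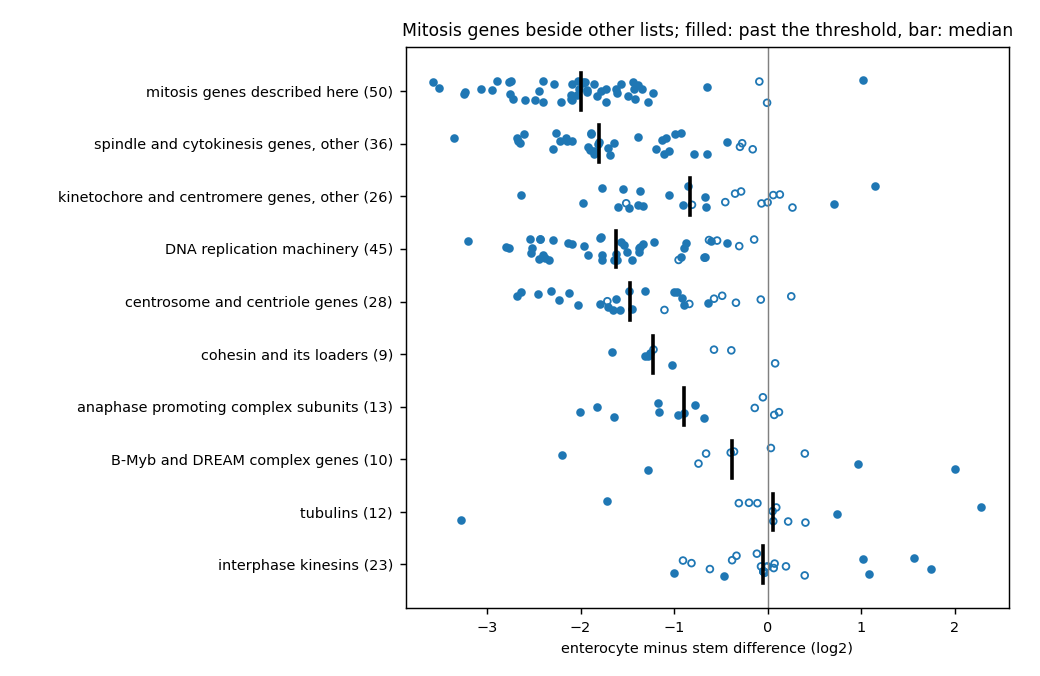
Enterocyte minus stem difference (log2, horizontal axis) of each measured gene of the mitosis set and of 9 other lists, with the number of genes in brackets, filled marks for genes past the threshold and a bar at the median. The medians run from -1.99 in the mitosis set to 0.06 in the tubulins (-0.56 with centring on the median level of the reference genes and -0.14 with their mean deviation), with the interphase kinesins at -0.04.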

How the data were processed

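The deposited table holds 1 normalized intensity per probe set and array. The submitters' processing notes name RMA, with no version; RMA works in log2, whereas the deposited intensity is linear. How arrays were scaled to each other is not stated. Log2 was taken with no pseudocount. No column lacked a sample (0 columns). Of 22690 probe sets 64 were controls and left out, 20380 had exactly 1 symbol, 691 several and 1555 none. Entrez identifiers of 20351 matched the RefSeq table of GRCm38.p6, 29 did not and kept the annotation's name.

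Group differences (enterocyte minus stem) were fitted two-sided with limma 3.58.1 (lmFit, then eBayes; R 4.3.3) over 12393 genes, with 2 residual and 1.23 prior degrees of freedom. Errors are limma's standard errors with n = 2 arrays per group, a number that limits the precision. The steps were tested on simulated data. The background level is the 90th percentile of 28 genes of other organs, log2 6.09 (intensity 68.2). Where both arrays of only 1 group lay below it, folds use values raised to it and are written "at least". Every measured member could be named; of other lists, up to 3 genes in the main and 2 in the opposite direction, plus Lgr5, Ccna2, Ccnb1, Ccnb2, Cdk1 and Mybl2. Marker genes serve to check the labels. Members and lists were chosen with earlier results of these data known. Alternatives covered probe set choice, dim genes, scaling, variance prior, array weights, the replicate block and each array left out.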

Additional observations from a re-analysis of the deposited data

How the results depend on the processing

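The median log2 difference of the 50 mitosis genes, -1.99, was -1.68 with the mean over probe sets and -1.54 with the dimmest probe set. It was -1.67 without probe sets marked _s_at, _x_at or _a_at, and -1.69 with 50 intensity units added before log2. With centring on the median level of 10 reference genes it was -2.61. With their mean deviation, an alternative chosen after seeing the data, it was -2.19. Leaving out 1 array gave medians from -2.08 to -1.81, from 0 to 20 falls and 0 rises; without a stem array 0 of all 12393 genes were called in limma (4675 and 4817 at an unadjusted p under 0.05). The 47 falls became 30 among the 38 genes left without marked probe sets, where Kif11, Spc25, Top2a, Pttg1 and Tacc3 did not pass on another probe set. In Spc25, Top2a and Tacc3 that other probe set averaged below background in the stem arrays. The 1 rise became 0 with values raised to the background level, where 34 of the 50 and 1881 of all 12393 genes fell. With the dimmest probe set 36 of the 50 and 1943 of all 12393 genes fell. Tacc3 turned to 0.21 with its dimmest probe set and without marked probe sets, where Bub3 stood at 0.26; Foxm1 was 0.12 with quantile normalization. The cause was not tested. Array weights, the trended and robust prior, quantile normalization and leaving out dim genes each gave 47 falls and 1 rise. The labels share replicate numbers but do not say whether same-numbered arrays are paired. Deviations of same-numbered arrays correlated at 0.0504 over genes. With 1 replicate difference per group, this cannot show whether more than a number is shared. With the replicate block 44 genes fell and 1 rose. Genes below background in 1 group have only a bound on their fold.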

Other observations

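Regulators upstream of the mitosis genes were called at about the share of all genes tested, of which 22.4% fell and 18.2% rose. The list held genes of the B-Myb and DREAM complexes and Rb1, which is not a subunit of them. Of its 10 measured genes 2 fell, 2 rose and 6 did not pass the threshold (limma), at a median of -0.38 (log2). Lin9, a core subunit shared by both complexes, was at least 3.50-fold lower in enterocytes (8.01 and 7.79 against 5.52 and 5.88). Mybl2, which encodes B-Myb, was 6.60 and 7.05 in stem and 6.12 and 6.06 in enterocyte arrays, a difference of -0.74 that did not pass (adjusted p = 0.0593, limma). The pocket protein genes Rb1 and Rbl2, which hold back the cycle, rose 4.00-fold (8.31 and 7.70 against 9.75 and 10.27) and 1.95-fold (7.16 and 7.10 against 7.98 and 8.21). Rbl1, of the same family, differed by -0.66 and did not pass (9.37 and 9.11 against 8.18 and 8.98, adjusted p = 0.237, limma). With centring on the median level of the reference genes 7 of the 10 were lower and 1 higher, and with their mean deviation 6 and 2.

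Tubulins are the subunits of spindle and interphase microtubules alike. Of 12 measured 2 fell, 2 rose and 8 did not pass, which is again near the share over all genes. Tuba3b, Tuba8, Tubb3, Tubb4a and Tubb6 lay below background on all 4 arrays, where a fall could not be seen. Tubb2b fell 9.72-fold (10.82 and 10.59 against 7.69 and 7.16) and Tubb5 3.29-fold, while Tuba1a rose 4.87-fold (9.24 and 8.20 against 11.28 and 10.74) and Tubb4b 1.67-fold (limma). With centring on the median level of the reference genes 9 were lower and 1 higher, and with their mean deviation 3 and 2.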
